A study of Mus musculus with 16 samples.

Results

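The 5' fragments of the valine tRNAs with anticodons AAC and CAC were measured in the small RNA of mature mouse sperm. A read was counted when it was 18 to 44 nt long, started at base 1, 2 or 3 of either tRNA and matched it with at most 1 substitution. By this rule 826629 of 103084122 reads in 8 libraries were valine 5' reads, and they comprised 1855 distinct sequences. Male mice carried Dnmt2+/+ or Dnmt2-/- and received a normal diet (ND) or a high-fat diet (HFD), with 2 libraries in each of the 4 groups (Dnmt2+/+ ND, Dnmt2+/+ HFD, Dnmt2-/- ND and Dnmt2-/- HFD). Per the labels, all mice were of the C57BL/6NCrl background. The homozygous knockout allele B6;129-Dnmt2tm1Bes/J had been backcrossed onto that strain, so the knockout is constitutive and not limited to the testis. Mice of 6 weeks of age were bought, and the sources used here do not give the age at sperm collection. Cauda epididymal sperm were pelleted and their RNA was extracted with Trizol. The labels do not say whether the 2 libraries of a group came from separate mice or pools, and the p-values given here reflect variation among libraries that may be technical. The small RNA files do not measure Dnmt2 messenger RNA, and the genotype labels were not checked here.

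Valine tRNAs carry valine to the ribosome. In mature sperm, tRNAs are largely found as fragments, and 5' fragments cut in or near the anticodon loop are among the abundant small RNAs of these cells. DNMT2 (Trdmt1) methylates the cytosine at base 38 of a few tRNAs, of which tRNA-Val-AAC is a known substrate in the mouse, and the adenine at the first anticodon base of tRNA-Val-AAC is deaminated to inosine, which reverse transcription reads as guanine. Sperm tRNA fragments have been studied as carriers of paternal diet effects, and the study asked how the sperm RNA profile depends on diet and on Dnmt2.

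No tRNA sequence was supplied with the files, and the tRNA was assembled from the reads. The assembled tRNA-Val-CAC is shown because the position of base 34 decides what can be told apart. The tRNA-Val-AAC line is the same sequence with the AAC anticodon (C34A, positions counted from 1 at the 5' end of the tRNA), and its other bases were not checked. Capitals mark the anticodon, and the last 3 bases are the added CCA tail.
tRNA-Val-CAC: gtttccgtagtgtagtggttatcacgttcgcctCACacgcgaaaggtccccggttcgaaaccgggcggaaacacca
tRNA-Val-AAC: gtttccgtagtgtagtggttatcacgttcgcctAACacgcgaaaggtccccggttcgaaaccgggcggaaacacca
The stretch over bases 1 to 42 was held by 28 reads, and every window of 17 bases was covered by at least 35 reads. The annotation (RefSeq, GRCm38.p6) lists 8 nuclear genes for tRNA-Val-AAC (n-TVaac1 to n-TVaac8) and 11 for tRNA-Val-CAC (n-TVcac1 to n-TVcac11). Of these 19 genes, 10 lie on chromosome 13 between bases 22015791 and 23446214, and the others lie on chromosomes 1, 3, 4, 6, 11 and 17. Each is a tRNA gene of its own, and n-TVcac8, at chr13:22026548-22026620, is an example. A read of this length cannot be assigned to one gene copy.

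The most abundant reads show the ends of the fragments, and 10 sequences held 75.7% of all valine 5' reads. They are listed with the most abundant read of tRNA-Val-AAC alone. A capital marks base 34 where the read reaches it, or a base that differs from the tRNA.
33-nt read: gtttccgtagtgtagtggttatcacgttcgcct
34-nt CAC read: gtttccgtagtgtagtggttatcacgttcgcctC
32-nt read: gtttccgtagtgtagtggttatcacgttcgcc
23-nt read: gtttccgtagtgtagtggttatc
32-nt read with C32T: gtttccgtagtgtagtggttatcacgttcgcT
29-nt read: gtttccgtagtgtagtggttatcacgttc
33-nt read with T33C: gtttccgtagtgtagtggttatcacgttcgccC
36-nt read with guanine at base 34: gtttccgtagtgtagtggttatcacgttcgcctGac
34-nt read with thymine at base 34: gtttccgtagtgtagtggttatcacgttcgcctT
33-nt read with T33A: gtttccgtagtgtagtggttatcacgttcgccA
34-nt AAC read: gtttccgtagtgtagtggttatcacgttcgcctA
The 2 tRNAs are the same up to base 33, so every read that ends there or earlier is shared by both. Of the 1855 sequences, 1287 were shared, 427 matched tRNA-Val-CAC alone, 108 matched tRNA-Val-AAC alone and 33 carried guanine or thymine at base 34. Reads that started at base 1 made up 95.5% to 97.8% of the valine 5' reads of a library.

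The libraries held 10165031 to 19030258 reads and fell into 3 sets by recurring base errors at fixed read positions, which the labels do not name. Set A held Dnmt2+/+ ND replicate 1 and both Dnmt2-/- ND libraries, with a median of 397 to 519 G-to-T errors per 10000 reads at read base 29, against at most 1.73 elsewhere. The Dnmt2+/+ HFD pair and replicate 1 of Dnmt2-/- HFD formed set B, with 8.29 to 9.13 C-to-G errors per 10000 reads at read base 26, against 0 elsewhere. Set C held Dnmt2+/+ ND replicate 2 and Dnmt2-/- HFD replicate 2, which showed neither error. All of set A is thus ND and all of set B HFD, and within these sets diet cannot be told apart from the set. The microRNAs of epididymal epithelium (5 of 5 listed arms matched, all detected) summed to 190 to 412 CPM in set A, 3035 to 3987 CPM in set B, 1914 CPM in Dnmt2+/+ ND replicate 2 and 608 CPM in Dnmt2-/- HFD replicate 2. The 1 muscle microRNA matched, miR-206-3p, ranged from 64.7 to 75.3 CPM across set B and did not exceed 0.676 CPM elsewhere. Blood microRNAs (4 matched) summed to 0.455 to 4.47 CPM, with miR-144-3p at 0 in all 8 libraries, and liver microRNAs (2 matched) to 6.40 to 26.8 CPM. The germ cell list (5 matched) summed to 2338 to 6279 CPM, of which miR-34b-5p made up at most 0.295 CPM and miR-449a-5p at most 4.76 CPM. Its other arms were miR-10a-5p, at 1102 to 3363 CPM, miR-10b-5p, at 908 to 2372 CPM, and miR-881-3p. The last was at 1398 CPM in Dnmt2+/+ ND replicate 1, 1044 in Dnmt2-/- ND replicate 2 and 728 in Dnmt2-/- HFD replicate 2. In the remaining libraries it was at 270 to 587 CPM.

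Valine 5' reads made up 0.313% to 1.78% of a library. In counts per 1000000 reads (CPM), their total was 3135 and 8367 in Dnmt2+/+ ND, 15055 and 17844 in Dnmt2+/+ HFD, 6769.7 and 4302 in Dnmt2-/- ND, and 11723 and 3739 in Dnmt2-/- HFD. The 3 libraries of set B were the highest, and both ND groups and Dnmt2-/- HFD overlapped. Dnmt2-/- HFD spanned most of the range with its 2 libraries, which belong to sets B and C. Fewer cells of a type and less RNA per cell cannot be told apart in these values. The totals and the epididymal microRNA sum were both highest in set B. Within set C both were higher in Dnmt2+/+ ND replicate 2 than in Dnmt2-/- HFD replicate 2. Within sets A and B the orders differed in part. Dnmt2-/- HFD replicate 1 was lowest of set B in both, but the sum was 3987 and 3481 CPM in Dnmt2+/+ HFD replicates 1 and 2. Dnmt2-/- ND replicate 1 was highest of set A in both. The lowest sum there was in Dnmt2-/- ND replicate 2 and the lowest total in Dnmt2+/+ ND replicate 1. Not every arm followed the sum. Both miR-200a-3p and miR-141-3p were highest in Dnmt2+/+ ND replicate 2, at 268 and 8.57 CPM, against at most 198 and 5.24 CPM in set B. The highest values of miR-200b-3p, miR-200c-3p and miR-429-3p were in set B. The part of epididymal RNA in the totals was not tested.

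**Figure D1:**
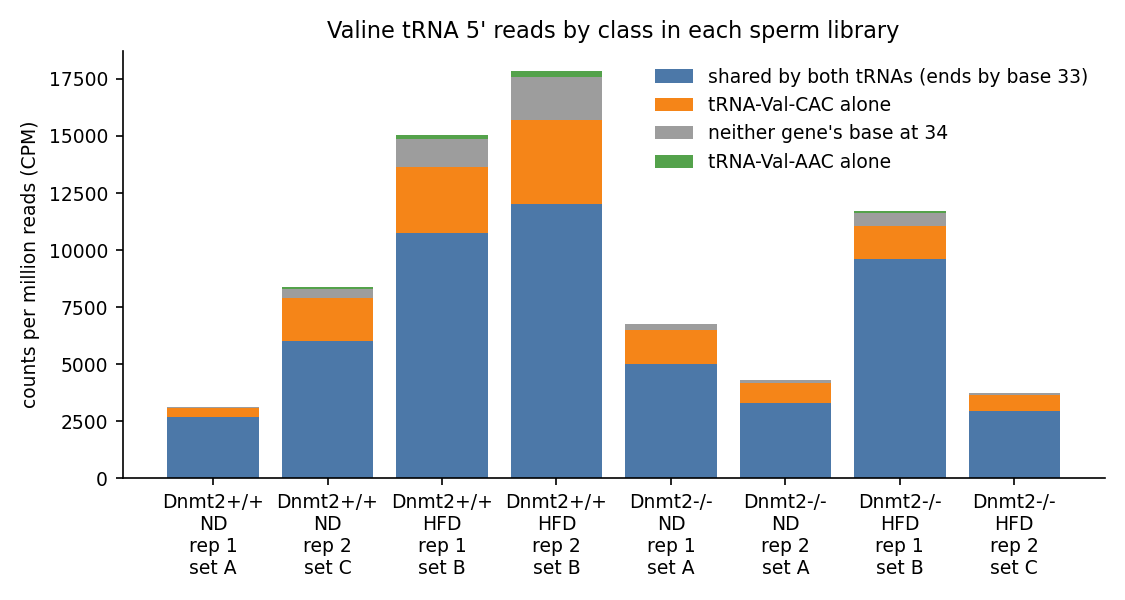
Stacked bars give the CPM of valine tRNA 5' reads in each of the 8 sperm libraries, split into reads shared by both tRNAs, reads of 1 tRNA alone and reads with neither gene's base at position 34; the set of each library is under its bar. The 3 set B libraries are the tallest, at 11723 to 17844 CPM, and the shared class is the largest in every bar.

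Shared reads were the largest class in every library, with 67.3% to 84.9% of the valine 5' reads. They were at 2663 and 6001 CPM in Dnmt2+/+ ND, 10732 and 12003 in Dnmt2+/+ HFD, 4992 and 3315 in Dnmt2-/- ND, and 9603 and 2948 in Dnmt2-/- HFD. The order of the libraries was that of the total. Reads of tRNA-Val-CAC alone came next, at 12.3% to 22.7%, and were at 414 and 1899.7 CPM in Dnmt2+/+ ND, 2907 and 3683 in Dnmt2+/+ HFD, 1499 and 861 in Dnmt2-/- ND, and 1442 and 687 in Dnmt2-/- HFD. In this class Dnmt2-/- HFD replicate 1, of set B, was below Dnmt2+/+ ND replicate 2 and Dnmt2-/- ND replicate 1. Reads of tRNA-Val-AAC alone were scarce, at 0.112% to 1.48% of the valine 5' reads, and varied most of the 4 classes, by 75.1-fold between the lowest and the highest library. They were at 3.52 and 73.6 CPM in Dnmt2+/+ ND, 204 and 264 in Dnmt2+/+ HFD, 27.7 and 7.98 in Dnmt2-/- ND, and 106 and 12.7 in Dnmt2-/- HFD. The 3 set B libraries were again the highest. Reads with guanine or thymine at base 34, the remaining class, made up 1.72% to 10.6% and exceeded the adenine class in every library. Inosine at base 34 of tRNA-Val-AAC is read as guanine. Neither the level nor the fold changes of the adenine class can therefore stand for that tRNA.

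Base 34 was read differently in reads that ended there and in reads that went on. Among reads whose last base was base 34, cytosine, the base of the CAC gene, made up 75.4% to 94.3% by library, adenine 0.827% to 5.98%, guanine 2.46% to 5.58% and thymine 1.62% to 14.7%. Among reads that went on to base 36 or beyond, of which there were 663 to 11005 in a library, guanine made up 60.3% to 86.4%, cytosine 13.04% to 38.2% and adenine at most 0.260%. Adenine was in 0 of 1656 such reads in Dnmt2-/- ND replicate 1, which allows a share of up to 0.181%. The widest 95% Wilson interval of the guanine share was ± 3.71 percentage points, so the gap between the 2 kinds of read exceeds the counting error in every library. These intervals cover counting error only, since the reads have no molecular identifiers. Of the reads assigned to tRNA-Val-AAC alone, 0 to 23 per library went on to base 36, and 97.1% to 99.6% ended exactly at base 34. For tRNA-Val-CAC alone this share was 92.5% to 96.0%. Whatever its last base, a 34-nt read cannot be told apart from a 33-nt shared read with 1 added or misread base. Each class that the rule sets by base 34, AAC and CAC included, may hold such reads.

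**Figure D2:**
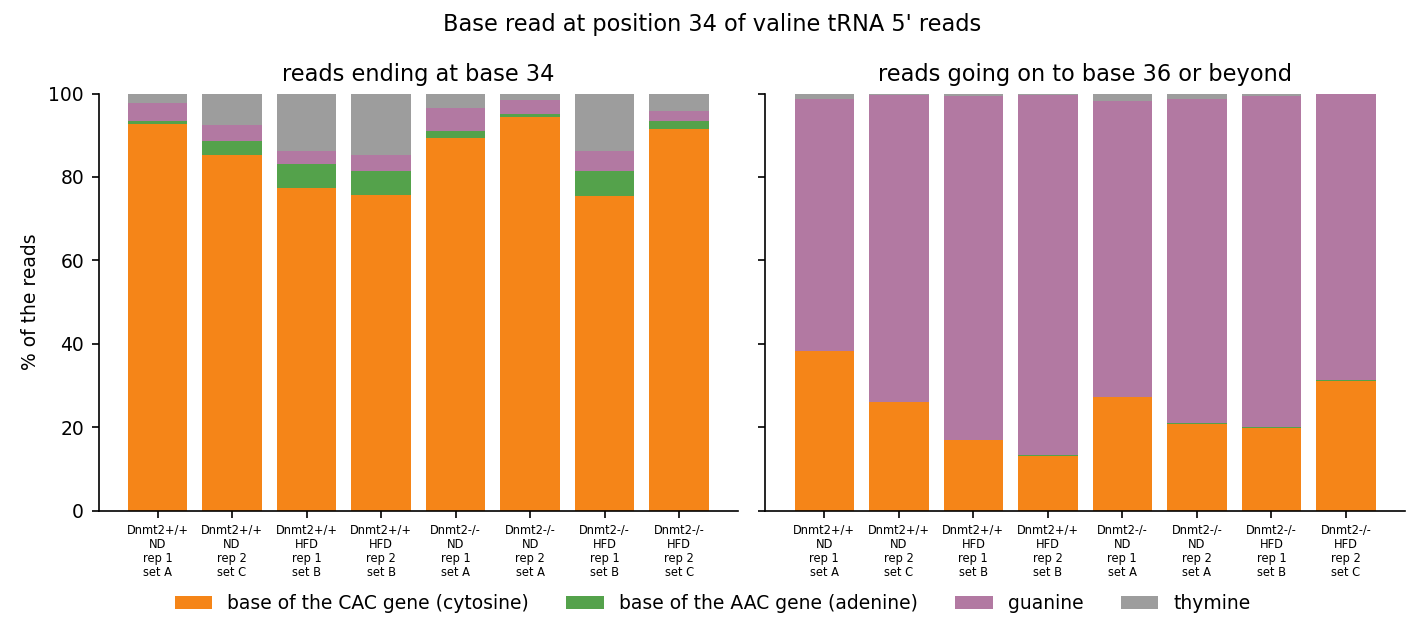
Bars give the share of each base at position 34 in each library, on the left for reads that end at base 34 and on the right for reads that go on to base 36 or beyond. Cytosine makes up at least 75.4% of every bar on the left, and guanine at least 60.3% of every bar on the right.

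Guanine at base 34 is the base inosine gives, as background; the origin of the guanine reads was not tested. Reads with guanine at base 34 that went on to base 36 or beyond were at 21.02 and 134 CPM in Dnmt2+/+ ND, 533 and 935 in Dnmt2+/+ HFD, 89.2 and 65.3 in Dnmt2-/- ND, and 195 and 39.8 in Dnmt2-/- HFD. Both Dnmt2+/+ HFD libraries stood above the other 6, including Dnmt2-/- HFD replicate 1 of the same set. The like reads with cytosine were at 13.3 and 47.1 CPM in Dnmt2+/+ ND, 109 and 141 in Dnmt2+/+ HFD, 34.1 and 17.49 in Dnmt2-/- ND, and 48.5 and 17.96 in Dnmt2-/- HFD. The guanine reads thus spanned 44.5-fold between libraries and the cytosine reads 10.6-fold. Only 7 to 124 reads per library reached base 38, the base that DNMT2 methylates, which amounts to 0.368 to 12.0 CPM.

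The fragments ended at a few places. In the D arm, base 23 was the last base of 10.0% to 32.8% of the reads. Near the anticodon, bases 32, 33 and 34 were the last base of 16.3% to 27.7%, 17.4% to 31.6% and 13.4% to 25.4%, and base 29 of 3.83% to 6.95%. Inside the anticodon, at its last base, ends at base 36 made up 1.10% to 6.12%. Mean read length was 29.3 and 31.2 nt in Dnmt2+/+ ND, 31.4 and 31.6 in Dnmt2+/+ HFD, 31.5 and 29.7 in Dnmt2-/- ND, and 31.3 and 30.05 in Dnmt2-/- HFD. Within both ND groups and Dnmt2-/- HFD, 1 library was over 1 nt shorter than the other. The same 3 libraries, Dnmt2+/+ ND replicate 1, Dnmt2-/- ND replicate 2 and Dnmt2-/- HFD replicate 2, had the largest shares of reads ending at base 23, at 32.8%, 29.3% and 21.3%, against 9.99% to 12.1% in the other 5. They belong to sets A, A and C, so this split does not follow the sets, and it does not follow diet or genotype. In the same order, these libraries had 3135, 4302 and 3739 CPM of valine 5' reads, the lowest totals.

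**Figure D3:**
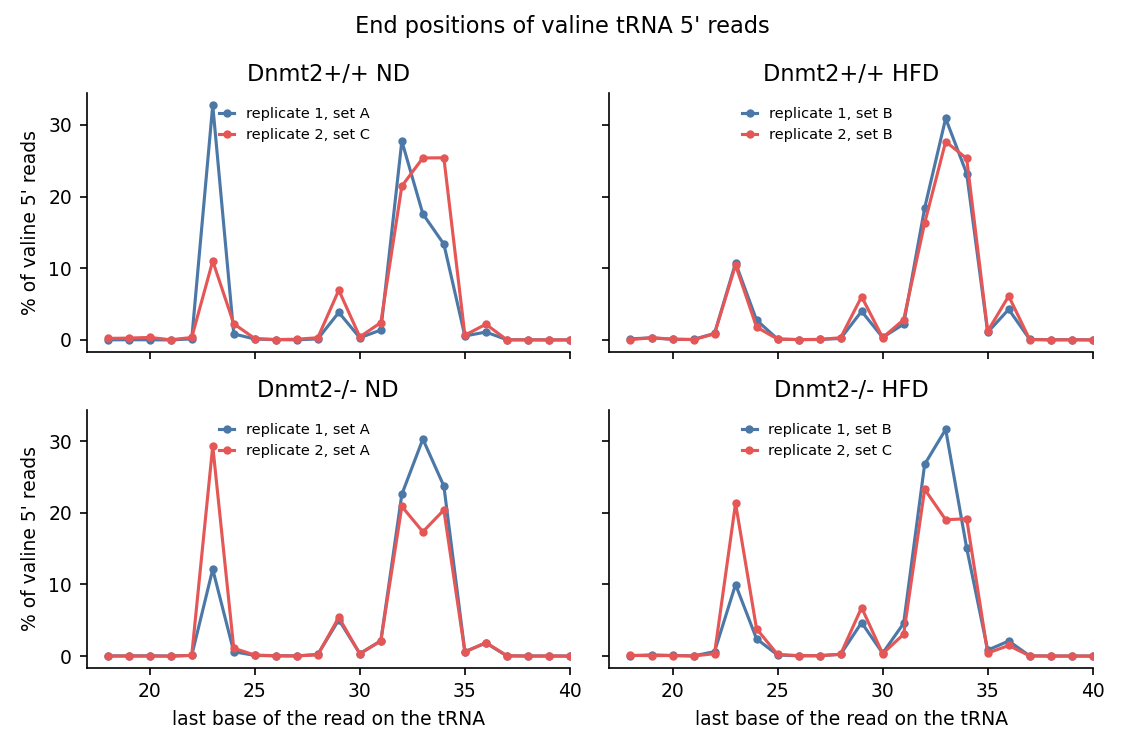
Each line gives 1 library, with the last base of the read on the x axis and its share of the valine 5' reads on the y axis, in 1 panel per group. Peaks stand at bases 23, 29 and 32 to 34, and in 3 of the 4 groups 1 library has a base 23 peak of 21.3% to 32.8% and the other of 9.99% to 12.1%.

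The fragments that ended at base 23 varied less in level than the longer ones. Reads ending at base 23 were at 1027 and 921 CPM in Dnmt2+/+ ND, 1616 and 1864 in Dnmt2+/+ HFD, 821 and 1262 in Dnmt2-/- ND, and 1171 and 798 in Dnmt2-/- HFD. These values span 2.34-fold, and the 2 Dnmt2+/+ HFD libraries were the highest. Reads ending at bases 32 to 34 spanned 6.72-fold, from 1840.2 to 12367 CPM. The 23-nt read itself spanned 2.16-fold and the 32-nt read 2.44-fold, against 7.26-fold for the 33-nt read, 8.89-fold for the 34-nt CAC read and 8.01-fold for the 29-nt read. The ratio of reads ending at base 23 to reads ending at bases 32 to 34 was 0.136 to 0.158 in 5 libraries and 0.347, 0.5003 and 0.558 in the 3 named above. Ends at base 36 were at 34.4 and 183 CPM in Dnmt2+/+ ND, 642 and 1092 in Dnmt2+/+ HFD, 124 and 81.1 in Dnmt2-/- ND, and 247 and 55.4 in Dnmt2-/- HFD. Set B held the 3 highest of these values.

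Reads with 1 substitution made up 17.2% to 36.2% of the valine 5' reads, counting guanine or thymine at base 34 as a substitution. A substitution at the last base was found in 20.5%, 21.2% and 24.7% of the reads in set B, in 3.42% to 7.68% in set A, and in 13.8% of Dnmt2+/+ ND replicate 2 and 6.85% of Dnmt2-/- HFD replicate 2. The share at the last base was thus highest in the 3 set B libraries. The 32-nt read with C32T was at 46.5 and 269 CPM in Dnmt2+/+ ND, 722 and 828 in Dnmt2+/+ HFD, 118 and 34.3 in Dnmt2-/- ND, and 899 and 72.5 in Dnmt2-/- HFD. It spanned 26.2-fold while the unchanged 32-nt read spanned 2.44-fold. The 33-nt reads with T33C and T33A spanned 36.7-fold and 49.2-fold, and the 34-nt read with thymine at base 34 spanned 68.4-fold, each with its 3 highest values in set B. Whether these last bases come from the RNA, from library making or from base calling was not tested.

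Up to base 33, substitutions were in general most frequent at bases 26 and 7, and in the 3 set A libraries at base 30. Base 26 was substituted in 224 to 305 of 10000 reads, as G26A, G26T and G26C, and base 7 in 76.1 to 187 of 10000, mostly as G7A. In Dnmt2-/- HFD replicate 1, base 7 did not stand apart, at 76.1 against 75.5 at base 22 and 92.0 at base 33. By diet, base 26 was substituted in 265 to 305 of 10000 reads on ND and 224 to 265 on HFD, and base 7 in 101 to 187 on ND and 76.1 to 128 on HFD. Base 30 was substituted in 306 to 315 of 10000 reads in the 3 set A libraries and in 10.7 to 14.2 in the other 5, mainly as G30T. G30T in set A is the error kind that defines that set. At the other positions up to base 33 the rate was 3.50 to 94.3 of 10000.

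**Figure D4:**
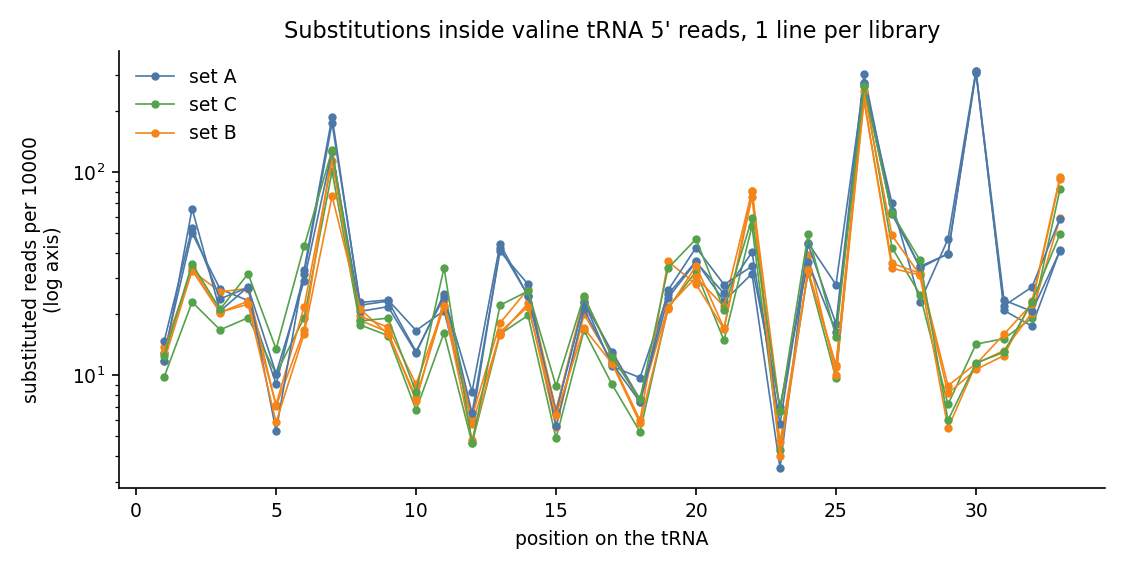
Each line gives 1 library, coloured by set, with the position on the tRNA on the x axis and the number of substituted reads per 10000 reads that extend past that base on a log y axis. All libraries peak at base 26, at 224 to 305, 7 of 8 have a smaller peak at base 7, at 101 to 187, and the 3 set A libraries alone peak at base 30, at 306 to 315.

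Diet was compared first in Dnmt2+/+ sperm. Valine 5' reads totalled 5751 ± 3700.2 CPM (SD, n = 2) on ND and 16450 ± 1972 CPM (SD, n = 2) on HFD, and both HFD libraries were above both ND libraries. The log2 fold change was 1.52 ± 0.58 (SE), with an adjusted p of 0.401 in edgeR's quasi-likelihood test with Benjamini-Hochberg adjustment over 30302 features (all valine 5' reads as 1 feature, other reads by their first 18 bases). In this comparison 0% of the features passed an adjusted p of 0.05, and 2911 had an unadjusted p under 0.05. DESeq2, which scales by its own size factors, called 804 of the 20902 features to which it gave an adjusted p. The median log2 fold change of all features was 0.29, and 16.5% of features were higher than the valine value. With the set as a term the valine value turned to -0.67 ± 0.43 (SE; adjusted p = 0.9999 in edgeR), with the diet contrast taken from set C, whose 2 libraries also differ in genotype. The shared reads had 1.39 ± 0.57, the CAC reads 1.51 ± 0.67, the AAC reads 2.60 ± 1.23 and the reads with another base at 34 2.80 ± 0.97 (log2 fold change ± SE), and none passed (adjusted p 0.351 to 0.536 in edgeR). Leaving out either Dnmt2-/- HFD library, neither of which enters this contrast, left the AAC value at 2.60. The value of the reads with another base at 34 likewise stayed at 2.80. The valine value itself was 0.98 without Dnmt2+/+ ND replicate 1 and 2.39 without Dnmt2+/+ ND replicate 2. Without Dnmt2+/+ ND replicate 1, the shared, CAC, AAC and other-base values were 0.92, 0.79, 1.67 and 1.98. Without Dnmt2+/+ ND replicate 2 they were 2.09, 2.99, 6.05 and 4.85. Fits without 1 library leave 1 library in a group, so only the fold changes of the valine reads are given from them.

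In Dnmt2-/- sperm the total was 5536 ± 1745 CPM (SD, n = 2) on ND and 7731 ± 5645 CPM (SD, n = 2) on HFD, and the groups overlapped. The log2 fold change was 0.48 ± 0.57 (SE; adjusted p = 0.982 in edgeR). Here too 0% of 30302 features passed, and 1754 had an unadjusted p under 0.05. DESeq2 called 77 of 9153. The median of all features was 0.47, and 49.6% of features were higher than the valine value. The value was 0.03 with TMM factors and 0.0060 in DESeq2, and 1.08 without Dnmt2-/- HFD replicate 2. The direction rested on 1 library: without Dnmt2-/- HFD replicate 1 the value was -0.57, and with the set as a term it was -1.98 ± 0.45 (SE; adjusted p = 0.99998 in edgeR). By class, the shared reads had a log2 fold change of 0.60 ± 0.56, the CAC reads -0.15 ± 0.66, the AAC reads 1.74 ± 1.196 and the reads with another base at 34 0.85 ± 0.91 (SE), and none passed. The difference between the diet effects of the 2 genotypes was -1.03 ± 0.80 on the log2 scale (SE; adjusted p = 0.9999 in edgeR). Of the features 0% passed, 2021 had an unadjusted p under 0.05, and DESeq2 called 45 of 9153. Reads with another base at 34 differed by -1.95 ± 1.29 (SE; adjusted p = 0.9999 in edgeR). Without Dnmt2-/- HFD replicate 1, which leaves 1 library in that group, they differed by -3.80.

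Over both genotypes, the 4 HFD libraries had 12090.4 ± 6104 CPM (SD) and the 4 ND libraries 5643 ± 2365 CPM (SD), a difference of 6447 CPM with an exact two-sided permutation p of 0.114 (adjusted p = 0.457 over 8 tests), where the smallest p that 4 libraries against 4 allow is 0.0286. Of the HFD libraries, 3 were above all ND libraries, and these are the 3 of set B; the fourth HFD library, in set C, had 3739 CPM against 8367 CPM in the ND library of that set. The share of reads reaching base 34 was 25.2% ± 6.73 (SD, n = 4) on HFD and 23.1% ± 5.82 (SD, n = 4) on ND (exact permutation p = 0.657, adjusted 0.751). Of the reads reaching base 34, 71.3% ± 10.6 (SD, n = 4) carried cytosine there on HFD and 84.9% ± 3.46 (SD, n = 4) on ND (exact permutation p = 0.0857, adjusted 0.457). Exact matches leave out all reads with guanine or thymine at base 34 by the rule, so their share compares cytosine with adenine alone. The difference of -13.6 points was -3.63 there, which is another quantity and no check of the first. Over all reads reaching base 34, the cytosine share was 63.1% to 68.0% in set B and 84.3% to 87.8% in set A. In set C it was 80.3% on ND and 86.8% on HFD. Mean length was 31.1 ± 0.693 nt on HFD and 30.4 ± 1.10 nt on ND (SD, n = 4; exact permutation p = 0.257, adjusted 0.503).

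Genotype was compared on each diet, which asks whether the fragments depend on Dnmt2. On ND, Dnmt2-/- had 5536 ± 1745 CPM and Dnmt2+/+ 5751 ± 3700.2 CPM (SD, n = 2 each). Of the features 0% passed, 762 had an unadjusted p under 0.05, and DESeq2 called 8 of 16790. The log2 fold change of the valine 5' reads was -0.055 ± 0.57 (SE; adjusted p = 1 in edgeR). The direction of this value was not stable, at 0.57 with TMM factors and 0.82 without Dnmt2+/+ ND replicate 2. The set as a term also gave 0.82, which is the same contrast, since both compare the genotypes within set A. Within set A the 2 Dnmt2-/- ND libraries, at 4302 and 6769.7 CPM, were above the 1 Dnmt2+/+ ND library, at 3135 CPM. On HFD, both Dnmt2-/- libraries were below both Dnmt2+/+ libraries. Of the features 0% passed, 2098 had an unadjusted p under 0.05, and DESeq2 called 432 of 17377. The log2 fold change of the valine 5' reads was -1.09 ± 0.57 (SE; adjusted p = 0.810 in edgeR). This value was -2.14 without Dnmt2-/- HFD replicate 1, and -0.49 both without Dnmt2-/- HFD replicate 2 and when the set was a term. It was -0.63 with TMM factors and -0.62 in DESeq2. Within set B, Dnmt2-/- HFD replicate 1 had 11723 CPM and the Dnmt2+/+ HFD libraries 15055 and 17844 CPM. The median of all features was -0.32 on both diets, and 39.02% of features on ND and 80.4% on HFD were higher than the valine value. The reads of tRNA-Val-CAC alone, AAC alone and with another base at 34 had log2 fold changes of -1.63 ± 0.68, -1.98 ± 1.20 and -2.23 ± 0.95 (SE) on HFD, and none passed. Without Dnmt2-/- HFD replicate 1, which leaves 1 library in that group, the AAC value was -4.20. The value of the reads with another base at 34 was then -4.08.

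**Figure D5:**
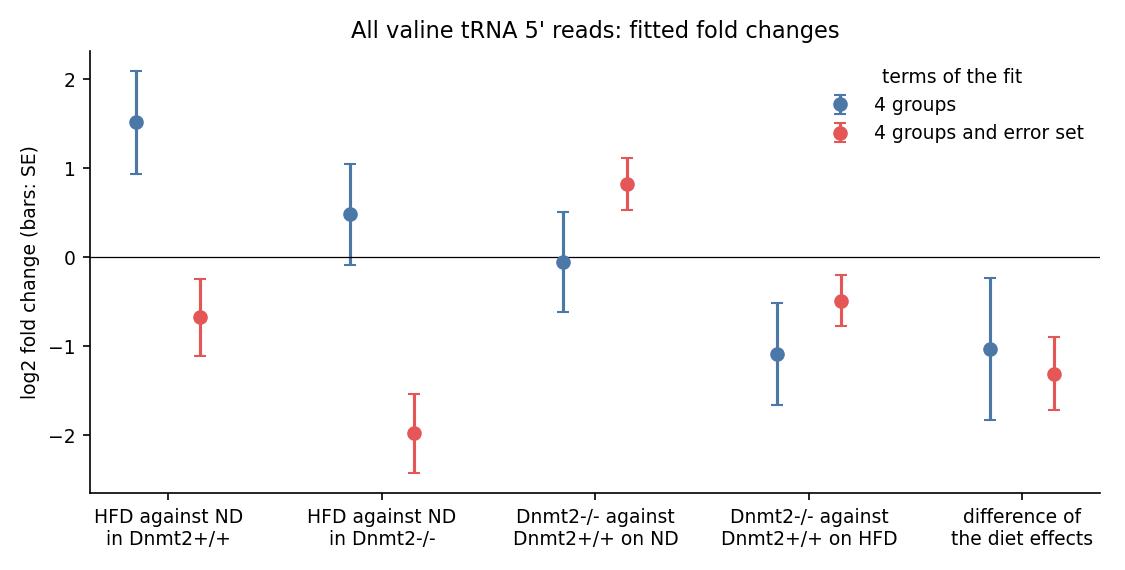
Points give the log2 fold change of all valine 5' reads in 5 comparisons, with bars of 1 SE, from the fit of the 4 groups (blue) and from the fit with the error set added (red). Both diet values lie above 0 in blue, at 1.52 and 0.48, and below 0 in red, at -0.67 and -1.98, where diet is compared between 2 libraries of set C that also differ in genotype; no value passed the test.

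Over both diets, Dnmt2-/- libraries had 6633 ± 3639 CPM and Dnmt2+/+ libraries 11100.3 ± 6634 CPM (SD, n = 4 each), with an exact permutation p of 0.286 (adjusted 0.503). The share reaching base 34 was 22.1% ± 3.41 in Dnmt2-/- and 26.2% ± 7.70 in Dnmt2+/+ (SD, n = 4; exact permutation p = 0.400). In the same order, the share of cytosine at base 34 was 81.6% ± 9.15 and 74.6% ± 11.5 (exact permutation p = 0.314). This difference was 7.02 points. It was 1.69 among exact matches, which hold no guanine or thymine at base 34 by the rule. Mean length was 30.6 ± 0.878 and 30.9 ± 1.07 nt (exact permutation p = 0.857). None of these measures separated the genotypes.

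Of the 1855 valine 5' sequences, 46 had a mean of 10 CPM or more, and 3324 sequences of all reads did. The mean is over all 8 libraries, so a sequence can pass through the libraries where it is high alone. The counts without overlap therefore depend in part on this cut, for the 46 and for the 3324. None of the 46 was higher in all 4 HFD libraries than in all 4 ND libraries, against 9.36% of the 3324, and 1 was lower without overlap, against 3.55%. That 1 sequence, named after its values were seen, is the 32-nt read with G30T, which marks set A. In Dnmt2+/+ sperm, 41 of the 46 were higher in both HFD libraries than in both ND libraries, against 34.9% of all 3324, and 1 was lower, against 13.4%. In Dnmt2-/- sperm, 7 of the 46 were higher on HFD without overlap, against 35.3%, and 4 were lower, against 22.5%. The 4 were the 32-nt and 33-nt reads with G30T and the 23-nt and 34-nt reads with G7A. On ND, 3 of the 46 were higher in Dnmt2-/- than in Dnmt2+/+ without overlap, against 9.78%, and 1 was lower, against 9.24%. The 3 were both G30T reads and the 32-nt read with G7A, and the 1 was the 23-nt read with C23T. On HFD, 0 of the 46 were higher in Dnmt2-/-, against 14.3%, and 31 were lower, against 26.7%. The 46 sequences come from the same tRNAs in the same 8 libraries and are no replicates of each other.

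Just outside the rule, reads with 2 substitutions amounted to 2.74% to 6.37% of the number of valine 5' reads. The 2 most abundant are shown because they differ from tRNA-Val-CAC in different places, the first by C34G and C36T and the second by T20C and T27C.
36-nt read outside the rule: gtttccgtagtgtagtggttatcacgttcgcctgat
33-nt read outside the rule: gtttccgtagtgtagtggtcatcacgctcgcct
The first was at 0.368 and 6.67 CPM in Dnmt2+/+ ND, 69.6 and 143 in Dnmt2+/+ HFD, 3.94 and 0.913 in Dnmt2-/- ND, and 26.9 and 1.13 in Dnmt2-/- HFD, with its 3 highest values in set B. The second was at 6.15 and 24.2 CPM in Dnmt2+/+ ND, 28.5 and 27.2 in Dnmt2+/+ HFD, 20.4 and 10.2 in Dnmt2-/- ND, and 42.6 and 8.49 in Dnmt2-/- HFD, and spanned a narrower range. Whether the second comes from another valine tRNA gene copy was not tested, since no gene sequence was used here. Among 275 other read starts of 18 bases with a mean of at least 100 CPM, the start most like the valine total over the 8 libraries was the valine start itself, from reads that failed the match rule (Pearson r of log2(CPM + 1) = 0.992). The next were the starts shown here for identification.
Start 2: ggctggtccgaaggtagt
Start 3: cgatacgactcttagcgg
Their r was 0.911 and 0.909, and all of these values share the depth and the sets of the same 8 libraries.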

How the data were processed

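Per the labels' protocols, sperm RNA was made into libraries with the TruSeq small RNA kit. The authors deposited counts: each sperm file holds 1 row per distinct sequence, with its length and read number. Adapter trimming and filters are not stated in the sources used here. The submitters' processing notes name mm10 and GRCm38. The 3T3 cell files were not used. Reads were matched to a tRNA sequence assembled from the reads by overlaps of 16 bases (Python 3.11.15); CPM are counts per 1000000 reads of a library (10165031 to 19030258 reads). The test was edgeR 4.0.16 (R 4.3.3), quasi-likelihood, 4 groups in 1 fit, library size the total reads, filterByExpr; fits and permutation code were tested on simulated data. Alternatives were TMM factors, DESeq2 1.42.0, no filter, starts of 24 bases, exact matches, start at base 1, reads of at least 28 nt, the set as a term, a replicate block and leaving out each library. TMM factors moved the median log2 fold change of all features from 0.29 to -0.12 (diet, Dnmt2+/+), 0.47 to 0.04 (diet, Dnmt2-/-), -0.32 to 0.02 (genotype, ND) and -0.32 to 0.09 (genotype, HFD). Replicate libraries differed by far more than sampling noise (chi-square per feature 19.0 to 209), so each counts as 1. Sequences named are the 10 most abundant and the 3 most abundant of each class; end positions named hold at least 5% of reads in a library. Of the listed marker microRNA arms, 17 of 22 matched RefSeq sequences. Members, lists and tests were chosen with earlier results of these data known.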

Additional observations from a re-analysis of the deposited data

Results flagged for a closer look

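The share of valine 5' reads reaching base 34 was higher on HFD in both Dnmt2+/+ libraries than in both ND libraries, by 9.06 percentage points on average, and lower on HFD in both Dnmt2-/- libraries, by -4.97 points. The difference between the 2 diet effects was -14.0 points and was not tested. The share by library was 15.1% and 28.3% in Dnmt2+/+ ND, 28.7% and 32.7% in Dnmt2+/+ HFD, 26.3% and 22.9% in Dnmt2-/- ND, and 18.1% and 21.2% in Dnmt2-/- HFD.

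In 4 cases 1 library stood far from the other 3 of its diet or genotype, its gap to the nearest of them exceeding Dixon's 95% critical share of the range. Dnmt2-/- HFD replicate 1 had cytosine at base 34 in 68.0% of reads reaching it, where the other Dnmt2-/- libraries had at least 84.3%. Dnmt2+/+ ND replicate 1 had a mean length of 29.3 nt, where the other Dnmt2+/+ libraries had at least 31.2 nt. The same library had 32.8% of its reads ending at base 23, where the other Dnmt2+/+ libraries had at most 11.01%. Dnmt2-/- HFD replicate 2 had 21.3% ending there, where the other HFD libraries had at most 10.7%. Chance flags about 1 group in 20, and 40 groups of 4 libraries were looked at over 10 measures that share reads.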

How the results depend on the processing

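With the set as a term, which leaves diet to the 2 libraries of set C, 1 Dnmt2+/+ ND and 1 Dnmt2-/- HFD that differ in genotype too, several directions turned. The diet differences became -3465 CPM, -5.57 points reaching base 34, 6.10 points of cytosine at base 34 and -1.73 nt of mean length, and the genotype difference in mean length 0.54 nt. The log2 fold changes of diet in Dnmt2+/+, diet in Dnmt2-/- and genotype on ND became -0.67, -1.98 and 0.82 for all valine 5' reads, -0.78, -1.67 and 0.64 for shared reads, -1.39, -4.87 and 2.34 for AAC reads, and -0.66, -3.87 and 1.77 for reads with another base at 34; for CAC reads diet in Dnmt2+/+ became -0.27. Genotype on ND also turned with TMM factors (0.57 for all, 0.53 for shared reads, 0.51 for reads with another base at 34), with DESeq2 (0.55, 0.51 and 0.50) and, for CAC reads, with exact matches (-0.041). The causes were not tested.

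Without 1 library each, values ranged from -0.65 to 4.41 points for diet and the share reaching base 34, and from -0.79 to 0.052 nt for genotype and mean length. Log2 fold changes of diet in Dnmt2-/- ranged from -0.57 to 1.08 (all), -0.49 to 1.21 (shared), -0.49 to 2.90 (AAC), -0.78 to 0.31 (CAC) and -1.004 to 1.64 (another base at 34). Those of genotype on ND ranged from -0.60 to 0.82, -0.53 to 0.64, -2.27 to 2.34, -0.69 to 1.51 and -1.10 to 1.77 in the same order, and the AAC interaction from -4.31 to 0.29.

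In the order diet in Dnmt2+/+, diet in Dnmt2-/-, genotype on ND, genotype on HFD and interaction, features called numbered 0 throughout in edgeR. In DESeq2 they numbered 804, 77, 8, 432 and 45, of 20902, 9153, 16790, 17377 and 9153 features given an adjusted p. With no filter on low counts they numbered 639, 110, 23, 525 and 492 in edgeR. Without 1 library each, they ranged from 2 to 1178, 0 to 377, 0 to 60, 0 to 1645 and 0 to 1354, where more features passed the filter because a group then held 1 library, assumed to vary like the other groups. The replicate block called 5 features for diet in Dnmt2+/+ and 0 elsewhere, and gave 1.49 for the valine value there. Same-numbered libraries did not deviate together (r of replicate differences -0.45 to 0.26 over 6 pairs of groups). These differences also mix the error sets, so they cannot decide whether the numbers pair libraries or mark a batch.

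Depth did not limit the totals, which rest on 49755 to 181383 reads, but reads beyond base 38 were too few to describe. Sets A and B hold 1 diet each, and the only diet contrast within a set, in set C, has 1 library per diet and a difference in genotype.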

Other observations

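The third valine tRNA, tRNA-Val-TAC, was matched by the same rule. Its 5' reads were at 11.8 and 80.5 CPM in Dnmt2+/+ ND, 65.2 and 87.5 in Dnmt2+/+ HFD, 65.7 and 24.9 in Dnmt2-/- ND, and 66.3 and 23.7 in Dnmt2-/- HFD. The lowest library was Dnmt2+/+ ND replicate 1, as for the other valine tRNAs, and the groups overlapped. At most 12 of its reads per library also met the rule for the AAC and CAC tRNAs.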
